A study of Mus musculus with 9 samples.

Results

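The cytosolic ribosomal protein genes were described by RNA-seq in E14, a line of mouse embryonic stem cells. They were chosen by name, as the protein-coding rows of the count table whose mouse symbol begins with Rpl or Rps and a digit, together with Rplp0, Rplp1, Rplp2 and Rpsa. Kinases of the Rps6k family, Rpl10l and rows named as pseudogenes (ending in -ps) were left out. The rule gave 84 genes of the 38293 rows in the table. Of these, 45 encode proteins of the large ribosomal subunit, 3 of them in its stalk, and 31 encode proteins of the small subunit. A further 7 are paralogs (Rpl22l1, Rpl36al, Rpl39l, Rpl3l, Rpl7l1, Rps27l and Rps27rt), and Rps19bp1, which fits the name rule, encodes a protein that binds Rps19 and is no subunit.

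There were 3 culture states with 3 biological replicates each, all of the same cell line, from strain 129/Ola. mESC-2i were kept in N2B27 medium with mouse LIF, the MEK inhibitor PD0325901 and the GSK3 inhibitor CHIR99021, conditions that hold cells in naive pluripotency. mESC-ser were kept on gelatin in DMEM with serum and mouse LIF, and the labels call them primed. EpiLC (epiblast-like cells) were derived from naive mESC on fibronectin, in N2B27 with activin A, bFGF and knockout serum replacement. The groups thus differ in medium, substrate and signalling molecules together, and the effects of these cannot be told apart.

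Each ribosome needs 1 copy of nearly every ribosomal protein, so cells make these proteins in near-equal numbers, and their mRNAs are among the most abundant in dividing cells. The mRNAs are short and begin with a C followed by a tract of C and T, the terminal oligopyrimidine (TOP) motif, through which the mTOR kinase adjusts their translation to nutrients and growth factors. Control of these genes is in large part translational, and mRNA counts do not measure it. Rodent and primate genomes hold many processed pseudogenes of this family, which share long exact stretches with the mRNAs.

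The TOP tract is shown for a few members because it is the feature for which the start sites of this family are known. RefSeq start sites (build GRCm38.p6) were found for 64 of the 84 genes, and the first listed start of each gene was used. Each line below gives 30 bases of the sense strand, the last 15 of which are transcribed, and capitals mark the longest run of C and T that touches the start site or lies within 3 bases of it. The first 6 genes have a run of at least 8 bases and the last 4 do not.
Rplp2 (chr7:141447636-141447665, plus strand): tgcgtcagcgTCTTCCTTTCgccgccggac
Rpl35 (chr2:39005117-39005146, minus strand): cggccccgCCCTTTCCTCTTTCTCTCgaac
Rpl38 (chr11:114668565-114668594, plus strand): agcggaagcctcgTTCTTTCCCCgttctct
Rps6 (chr4:86857353-86857382, minus strand): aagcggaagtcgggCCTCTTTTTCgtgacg
Rps18 (chr17:33955651-33955680, minus strand): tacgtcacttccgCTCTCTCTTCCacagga
Rps27 (chr3:90213634-90213663, minus strand): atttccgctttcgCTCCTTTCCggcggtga
Rpl39l (chr16:10170213-10170242, plus strand): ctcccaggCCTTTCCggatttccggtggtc
Rpl41 (chr10:128549154-128549183, minus strand): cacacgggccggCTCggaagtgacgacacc
Rps2 (chr17:24720048-24720077, plus strand): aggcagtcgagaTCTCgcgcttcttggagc
Rpl7l1 (chr17:46782642-46782671, minus strand): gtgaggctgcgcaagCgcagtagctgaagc
A run of at least 8 C or T at the start was found in 19 of the 64 genes (29.7%) and in 2118 of 27025 start sites of all genes (7.84%). The listed start was a C in 34.4% of the 64 and in 16.2% of all. Within the 300 bases around the start, the ETS core CCGGAAG was present on either strand in 25 of the 64 genes (39.1%), against 9.12% of all. The YY1 core AAGATGG was present in 14.1% against 6.48%, the E-box CACGTG in 7.81% against 7.24%, and TATAAA in 9.38% against 14.2%. These are matches of letters in a window around 1 listed start each, and a listed start can lie several bases from the start used in these cells.

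Total counts ranged from 7187576 to 16829549 per library. The states carried their markers, since the summed level of 6 naive markers (Klf4, Esrrb, Zfp42, Nanog, Tfcp2l1 and Tbx3) was 3032 to 3135 CPM (counts scaled to library size) for mESC-2i, 1602 to 1693 for mESC-ser and 90.02 to 103 for EpiLC. The summed level of 5 formative markers (Fgf5, Otx2, Dnmt3b, Pou3f1 and Dnmt3a) was 82.8 to 95.0, 766 to 914 and 2163 to 2225 CPM in the same order. Fibroblast and mesenchyme markers (Col1a1, Col1a2, Thy1 and Pdgfra) summed to 34.2 to 42.7, 59.1 to 79.8 and 31.0 to 38.6 CPM in that order, and mesendoderm markers (T, Mixl1 and Eomes) to 96.8 to 115, 11.9 to 15.4 and 12.2 to 14.3 CPM. Primitive endoderm markers (Gata4, Gata6, Sox17 and Sox7) summed to 6.19 to 7.10, 8.67 to 11.2 and 1.38 to 2.30 CPM, and trophectoderm markers (Cdx2, Eomes, Krt7 and Elf5) to 35.1 to 40.01, 14.2 to 17.2 and 15.8 to 17.6 CPM. At most 2 genes of a list were at 0 counts in a library, and the part of these cell types in the results below was not tested. Replicate 3 of mESC-2i stood furthest from its group (chi-square per degree of freedom 12.6 and 28.3 against the others). Values without it are given where it bears on a result. Replicate 3 of mESC-ser also stood apart (10.91 and 11.02 against the others, which gave 1.609 between them). Values without that library lie within the ranges from leaving out 1 library at a time, and are not given separately.

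Ribosomal protein mRNAs took the largest share of counted reads in EpiLC and the smallest in mESC-ser. The 84 genes held 5.92%, 6.83% and 4.74% of the counts in replicates 1, 2 and 3 of mESC-2i. The mESC-ser replicates gave 3.18%, 3.30% and 2.68%, and the EpiLC replicates 10.9%, 11.3% and 10.8%. The 3 groups did not overlap, and the means were 5.83% ± 1.05 (SD, n = 3), 3.05% ± 0.327 and 10.998% ± 0.280. A share of reads cannot tell fewer of these mRNAs per cell from more RNA of other genes per cell, nor from a changed mixture of cells. The share of the mitochondrial genome's genes, another abundant group of poly-A transcripts, overlapped between mESC-2i and EpiLC, with 6.68% ± 1.14 for mESC-2i, 3.99% ± 0.325 for mESC-ser and 6.32% ± 0.285 for EpiLC.

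**Figure D1:**
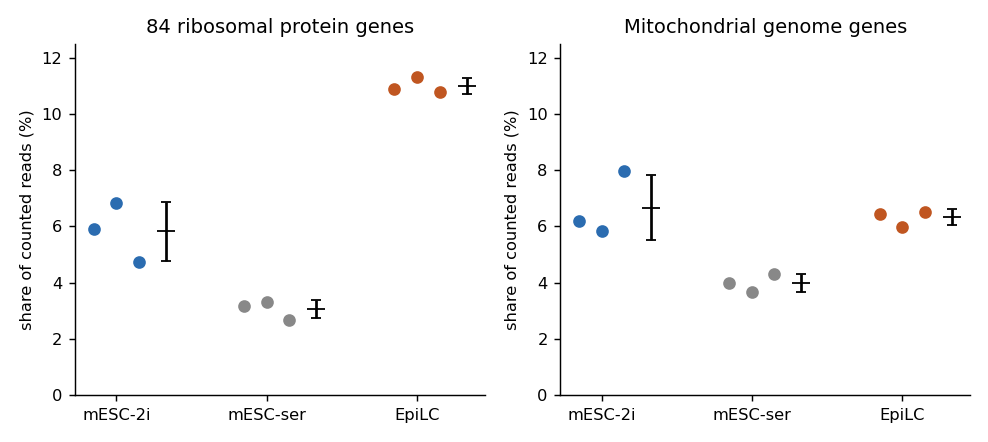
Share of all counted reads (%) held by the 84 ribosomal protein genes (left) and by the genes of the mitochondrial genome (right) in each library (coloured points, replicates 1 to 3 from left to right), with the group mean and SD beside them (black, n = 3). The ribosomal protein share lay between 10.8% and 11.3% in EpiLC and between 2.68% and 3.30% in mESC-ser, with mESC-2i between.

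Levels differed widely within the family. The median member stood at 575, 673 and 453 CPM in replicates 1, 2 and 3 of mESC-2i, at 296, 314 and 254 CPM in mESC-ser and at 1457, 1557 and 1418 CPM in EpiLC. Per kilobase of the main mRNA, the stalk protein Rplp1 had the highest level in all 3 states (2526, 1498 and 6784 CPM per kb in mESC-2i, mESC-ser and EpiLC), followed by the large-subunit protein Rpl8 (2467, 1480 and 5783). Rpl3l, a relative of Rpl3 used mainly in muscle, had the lowest (0.990, 0.597 and 0.675 CPM per kb). Among the 76 subunit genes the level per kb at the 90th percentile was 4.78 times that at the 10th percentile in mESC-2i, 4.66 times in mESC-ser and 6.59 times in EpiLC. Per-kb levels of Rps15a and Rps20 are understated, because the transcript taken as their main mRNA is 5130 and 3706 bases long, against a family median of 775.

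Near-identical copies limit these levels. A median of 52.2% of the 50-base windows of a member's transcripts, the length of a read, was found without mismatch in the transcript of another annotated gene, and 80 of the 84 genes had such a copy in a pseudogene. Rpl39l, Rpl3l and Rps19bp1 had no copied window. The handling of reads with several alignments is not given in the sources used here, so the split of counts between a member and its copies is uncertain. The exons of 38 members also overlap another annotated gene, and the library kit does not keep the strand.

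Serum culture was accompanied by lower ribosomal protein mRNA than 2i culture. Genes were called at an adjusted p under 0.05 (edgeR quasi-likelihood test, Benjamini-Hochberg adjustment over all genes tested) and an absolute log2 fold change over 0.5. Of 15728 genes tested, 30.3% were called lower and 25.9% higher in mESC-ser. Of the 84 members, 75 were called lower and 1 higher, and the median log2 fold change was -0.91 (0.532 of the mESC-2i level), against -0.04 over all genes. The CPM of 78 members lay lower in every mESC-ser library than in any mESC-2i library, where 35.6% of all genes tested did so, and that of 1 member lay higher (35% of all genes). The large subunit (42 of 45 lower, median -0.91) and the small subunit (30 of 31 lower, median -0.97) moved alike in these counts. Without replicate 3 of mESC-2i 78 members were called lower with a median of -1.04, and without replicate 2 there were 70 with a median of -0.79.

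The stalk proteins, which recruit translation factors to the ribosome, all fell. Rplp0 was at 1386, 1780 and 1013 CPM in mESC-2i and at 949, 942 and 717 in mESC-ser (log2 fold change -0.70, SE 0.19, adjusted p = 0.0087). Rplp1 and Rplp2 fell by 0.78 and 1.002 on the log2 scale. For Rplp0 and Rplp1 the call was lost with offsets for gene length and GC content (-0.29 and -0.33), and for Rplp0 also without replicate 2 of mESC-2i (-0.49).

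The largest falls were those of Rps27rt, Rps14, Rpl22l1, Rps27 and Rpl39. Rps14, a small-subunit protein whose loss is known in human marrow failure, was at 816, 1123 and 565 CPM in mESC-2i and at 331, 347 and 241 in mESC-ser. All mESC-2i libraries lay above all mESC-ser libraries, and the log2 fold change was -1.47 ± 0.23 (adjusted p = 2.6e-04). Rpl39, a very small protein that lines the exit tunnel of the large subunit, was at 189, 254 and 106 CPM against 68.2, 77.6 and 67.6 (-1.38 ± 0.25, adjusted p = 6.5e-04). Rps27 was at 456, 594 and 321 CPM against 174, 200 and 158 (-1.39 ± 0.20, adjusted p = 1.3e-04). In these genes replicate 3 was the lowest library of mESC-2i and still above every mESC-ser library.

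Proteins with well known roles outside the ribosome were among those that fell. Rpl5 and Rpl11, which together with the 5S rRNA can bind and restrain Mdm2, had log2 fold changes of -0.76 ± 0.15 and -0.64 ± 0.11. The decrease was -1.23 ± 0.17 for Rps19, the gene most often mutated in Diamond-Blackfan anaemia, -1.18 ± 0.21 for Rps3, which also takes part in DNA repair, and -0.89 ± 0.15 for Rpsa, first known as a laminin receptor. Rps6, the substrate of the S6 kinases and a standard readout of mTOR signalling, fell by 0.88 on the log2 scale, and Rpl10a, Rpl38 and Rps25, for which roles in the choice of translated mRNAs have been described, fell by 1.18, 0.99 and 0.81. Rpl26 (-1.12), Rps7 (-0.97), Rpl13a (-0.91), Rps18 (-1.30), Rps27a (-1.11), Rps4x (-0.82), Rpl10 (-0.64) and Rpl3 (-1.0002) were also called lower. The calls of Rpl11, Rpl38 and Rpl10 were lost with length and GC offsets (-0.27, -0.48 and -0.33).

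There were 8 members that were not called, and 1 that rose. Among those not called, Rpl4 (-0.47, the member with the most counts), Rpl29 (-0.31), Rpl7a (-0.18) and Rpl36al (-0.50) had negative values, as did Rpl3l (-0.71, at no more than 20 counts in any library). Rps19bp1 and Rpl7l1 had values of 0.06 and 0.27. Rpl4 and Rpl36al lay near the fold threshold, and both were called lower with total-count or upper-quartile scaling (-0.52 and -0.51 for Rpl4, -0.54 and -0.54 for Rpl36al). Rpl39l rose, from 7.71, 10.9 and 7.08 CPM in mESC-2i to 22.5, 22.5 and 13.6 in mESC-ser (1.16 ± 0.24, adjusted p = 0.0014).

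In EpiLC nearly the whole family was higher than in mESC-2i, the state from which such cells are derived. Of 15378 genes tested, 32% were called higher and 37.8% lower. Of the 84 members, 81 were called higher and 0 lower, with a median log2 fold change of 1.38 (2.61-fold) against -0.11 over all genes. By edgeR and by DESeq2 alike, 0 members had an unadjusted p under 0.05 in the lower direction. All 45 large-subunit genes (median 1.30) and 29 of 31 small-subunit genes (median 1.46) rose. With total-count scaling 72 members were called higher and the median was 1.04. The CPM of 82 members lay higher in every EpiLC library than in any mESC-2i library and that of 0 lower, beside 38.2% and 43.6% of all genes tested.

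The largest rises were in Rpl39l, Rpl41, Rpl29, Rpl36al and Rps21. Rpl41, the smallest protein of the ribosome, was at 523, 627 and 451 CPM in mESC-2i and at 2316, 2374 and 2341 in EpiLC (2.13 ± 0.13, adjusted p = 1.7e-07). Rps21 was at 389, 506 and 292 CPM against 1522, 1670 and 1474 (1.98 ± 0.18, adjusted p = 2.3e-06). Rpl29 was low, at 11.1, 12.2 and 10.7 CPM against 48.1, 45.0 and 46.6 (2.04 ± 0.11, adjusted p = 6.6e-08), and 66.6% of its windows have copies. The EpiLC libraries of these genes lay close together, and each was far above the highest mESC-2i library.

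The 5 smallest rises that were called were in Rpsa, Rpl7l1, Rpl3, Rps6 and Rpl4. Rpl3, which reaches close to the peptidyl transferase centre, was at 1380, 1511 and 1113 CPM in mESC-2i and at 2048, 2123 and 2149 in EpiLC (0.66 ± 0.13, adjusted p = 6.1e-04). Rpl4 was at 2937, 3205 and 2470 CPM against 4665, 4792 and 4951 (0.74 ± 0.13, adjusted p = 2.6e-04), and Rps6 rose by 0.69 and Rpl5 by 0.74. Rpl7l1, at 199.9 CPM on average in mESC-2i, rose by 0.51. Rpsa, at 1054, 1189 and 869 CPM against 1428, 1514 and 1468, barely passed the fold threshold (0.50 ± 0.12, adjusted p = 0.0033), and its call was lost, for example, with total-count scaling (0.16) and with length and GC offsets (0.35). Calls of Rpl3, Rpl4, Rpl5, Rps6 and Rps4x were lost with total-count scaling (0.32 to 0.49), and that of Rps6 also with length and GC offsets (0.48).

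Among the others of the fixed set, the stalk genes Rplp0, Rplp1 and Rplp2 rose by 0.90, 1.42 and 1.29, and Rpl11 by 1.53. Values between 1 and 2 were also found for Rps19 (1.53), Rpl26 (1.49), Rpl10 (1.37), Rpl13a (1.30), Rps7 (1.21), Rps18 (1.18), Rps27a (1.04), Rps3 (1.03), Rps25 (1.64) and Rpl38 (1.98), and Rpl10a rose by 0.96. The call of Rplp1 was lost with length and GC offsets (0.26).

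The 3 members not called were Rps2, Rps3a1 and Rpl3l. Rps2, a small-subunit protein at the mRNA entry channel, was at 247, 299 and 175 CPM in mESC-2i and at 248, 264 and 229 in EpiLC, and the groups overlapped (0.04 ± 0.16, adjusted p = 0.83). Its -ps rows held 120 counts per 100 of Rps2 in mESC-2i and 237 in EpiLC, and with those rows added the family of Rps2 was called higher (0.67). Rps3a1 had a value of 0.50 just under the fold threshold and was called with RLE scaling and in DESeq2 (0.56 in both). Rpl3l stood at 0.928 ± 0.556 CPM in EpiLC and 1.36 ± 0.325 CPM in mESC-2i.

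Between EpiLC and mESC-ser the difference was larger still. This comparison uses the same EpiLC and mESC-ser libraries as the previous ones, so it is no independent evidence of either change. Of 15345 genes tested, 35.5% were called higher in EpiLC and 37.8% lower. Rpl3l did not pass the filter on low counts. Of the 83 members tested, 82 were called higher and 0 lower (0 also at an unadjusted p under 0.05, by edgeR and by DESeq2), with a median of 2.32 (5.01-fold), against -0.07 over all genes. All 76 subunit genes rose. The CPM of all 83 members tested lay higher in every EpiLC library than in any mESC-ser library and that of 0 lower, beside 39.6% and 46.1% of all genes tested.

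The 5 largest rises were in Rps21, Rps27rt, Rpl39, Rps27 and Rpl38, all with mRNAs of 612 bases or fewer. Rps21 was at 197, 206 and 176 CPM in mESC-ser against 1522, 1670 and 1474 in EpiLC (3.08 ± 0.09, adjusted p = 6.6e-14). Rpl38, which is needed for the patterning of the mouse axial skeleton, was at 90.1, 87.7 and 72.7 CPM against 616, 720 and 596 (3.02 ± 0.11, adjusted p = 2.6e-13). Rpl39 rose by 3.02 and Rps27 by 3.02 as well. The smallest called rise was that of Rps2 (0.76 ± 0.09), which with length and GC offsets was at 0.00 and not called. Rpl7l1 was not called (0.29 ± 0.10, adjusted p = 0.015).

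**Figure D2:**
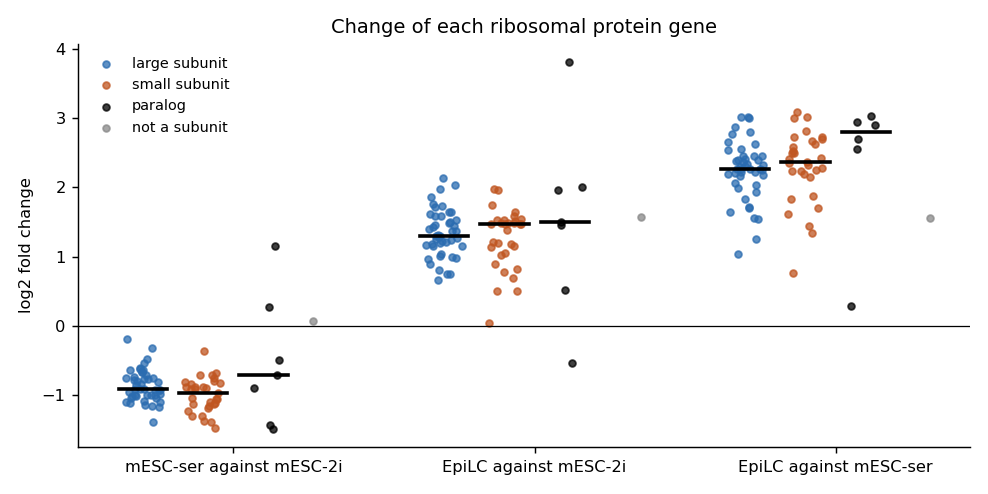
Log2 fold change (edgeR, TMM scaling) of each ribosomal protein gene in the 3 comparisons, by its place in the ribosome, with black lines at the group medians. Medians of the large and small subunit lay at -0.91 and -0.97, at 1.30 and 1.46, and at 2.26 and 2.37, while the paralogs spread from -0.53 to 3.803 between EpiLC and mESC-2i.

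The family was set beside other short genes. Other short protein-coding genes were those with an exonic length between 836 and 3517 bases, the 10th and 90th percentile of the members. In EpiLC against mESC-ser, 53.6% of 4463 such genes were called higher and 18.8% lower, with a median of 0.62. In EpiLC against mESC-2i 42.4% of 4569 were called higher and 28.3% lower (median 0.31), and in mESC-ser against mESC-2i 17.2% of 4622 were called higher and 38.7% lower (median -0.26). Over the whole length range of the members, the median in EpiLC against mESC-2i was 0.01, with 33.8% called higher and 34.1% lower. The members lay beyond the medians of the first set by 1.71, by 1.08 and by -0.65. Among the 257 short genes at the level of the members (a mean of at least 215 CPM) the medians were 0.88, 0.79 and -0.10. The members then differed from them by 1.44, 0.60 and -0.81. Most of these 257 genes were also called higher in EpiLC, 69.3% beside mESC-ser (7.78% lower) and 64.6% beside mESC-2i (8.56% lower). Between the 2 mESC states, 23.3% were called lower and 14.4% higher in mESC-ser. In EpiLC against mESC-2i the distance was 1.08 to short genes of any level and 0.60 to those at the level of the members.

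Offsets that remove the dependence on exonic length and GC content in each library were estimated without the members. They brought the median change of the members nearer to 0 in each comparison and kept its direction, but not that of every member. In mESC-ser against mESC-2i 6 members had a positive value with the offsets and 3 without. In mESC-ser against mESC-2i 56 members were called lower (28.5% of all genes) with a median of -0.62. In EpiLC against mESC-2i 75 were called higher (31% of all genes) and 1, Rpl3l, lower, with a median of 1.12. In EpiLC against mESC-ser 79 were called higher (34.2% of all genes), with a median of 1.79. With these offsets the members still lay beyond the other short genes of any level by -0.56, 0.99 and 1.57. From the 257 short genes at the level of the members they then differed by -0.72, 0.50 and 1.26.

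Length also ordered the subunit genes among themselves. Over the 76 genes, Spearman's rho of the log2 fold change with main mRNA length was -0.59 in EpiLC against mESC-2i, -0.56 in EpiLC against mESC-ser and 0.16 in mESC-ser against mESC-2i. These are descriptions across genes, which share their libraries and are not replicates. The 25 shortest (up to 612 bases) had a median of 1.49 and the 25 longest (from 937 bases) of 1.13 between EpiLC and mESC-2i, and 2.55 and 2.202 between EpiLC and mESC-ser. With the offsets rho was -0.22, -0.12 and -0.05 in the same order of comparisons. Genes with more and with less than 50% of their windows copied differed less in EpiLC against mESC-2i. The medians there were 1.34 for the 42 genes above 50% and 1.38 for the 34 at or below it. In EpiLC against mESC-ser they were 2.26 and 2.39. In mESC-ser against mESC-2i they were -0.90 and -0.98, where the 25 shortest had -0.96 and the 25 longest -0.89. With the offsets the medians by copied windows were 1.09 and 1.22, 1.69 and 1.93, and -0.58 and -0.70 in the same order of comparisons.

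**Figure D3:**
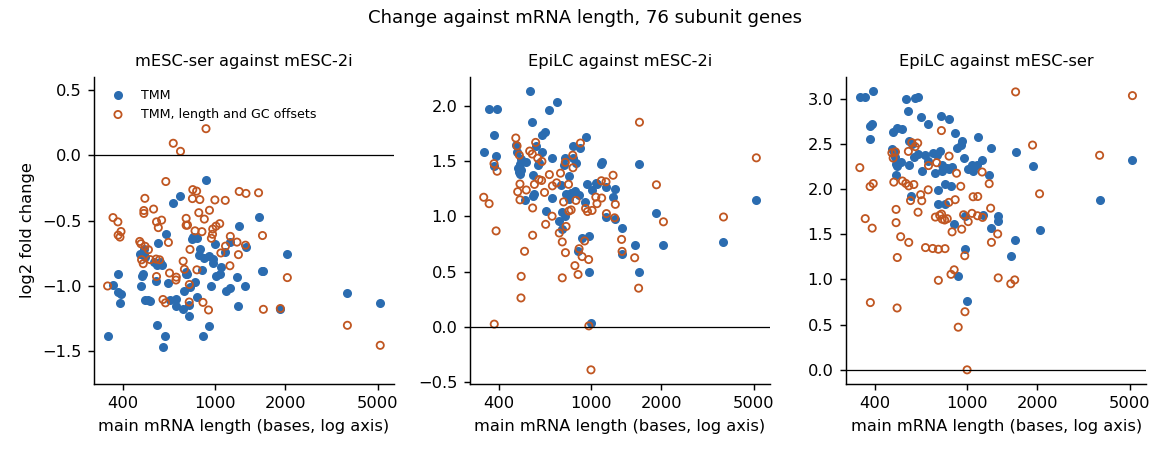
Log2 fold change of the 76 subunit genes against the length of the main mRNA (bases, log axis), from TMM scaling (filled) and with length and GC offsets (open), in the 3 comparisons. The filled points fall with length in both EpiLC comparisons, where the 25 shortest had medians of 1.49 and 2.55 and the 25 longest of 1.13 and 2.202.

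To find members that left the shared change, libraries were scaled by the members themselves, so that the median member lies near 0 by construction. In mESC-ser against mESC-2i, 6 members were called above the family (60.3% of all genes were) and 2 below it (8.84%). Among the 6 were Rpl39l, Rpl7l1, Rps19bp1, Rpl7a and Rpl29, and the 2 were Rps27rt and Rps14. The other 76 were not called apart from the family. With length and GC offsets in the same scaling 20 members were called apart from it (share of all genes not given). Without replicate 1 of mESC-2i 5 members were called apart, and without replicate 3 there were 11.

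More members were called apart in EpiLC. Against mESC-2i, 9 members were called above the family (7.17% of all genes) and 12 below (73.6%). Among those above it were Rpl39l (2.47), Rpl41 (0.79), Rpl29 (0.68), Rpl36al, Rps21, Rpl38, Rps27l and Rpl37a. Below it stood Rpl3l, Rps2 (-1.29), Rps3a1 (-0.85), Rpsa (-0.84), Rpl7l1 (-0.84), Rpl3 (-0.69), Rps6 (-0.66), Rpl4, Rpl5, Rps20, Rpl7a and Rps4x. Against mESC-ser, 10 were called above (3% of all genes) and 16 below (87.2%), from 0.74 for Rps21 to -1.59 for Rps2 and -2.05 for Rpl7l1. With length and GC offsets in the same scaling 47 members were called apart from the family in this comparison (share of all genes not given). The departures went together with mRNA length, as given above. Of the members below the family in EpiLC against mESC-2i, the -ps rows held more counts per 100 of the gene in EpiLC than in mESC-2i for Rps2, as given above, for Rpl7a (81.3 in mESC-2i and 119.7 in EpiLC) and for Rps6 (112 and 139). They held fewer for Rpl3 (64.2 and 40.4) and Rpl5 (49.4 and 33.2). The part of length and of these rows in the departures was not tested.

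**Figure D4:**
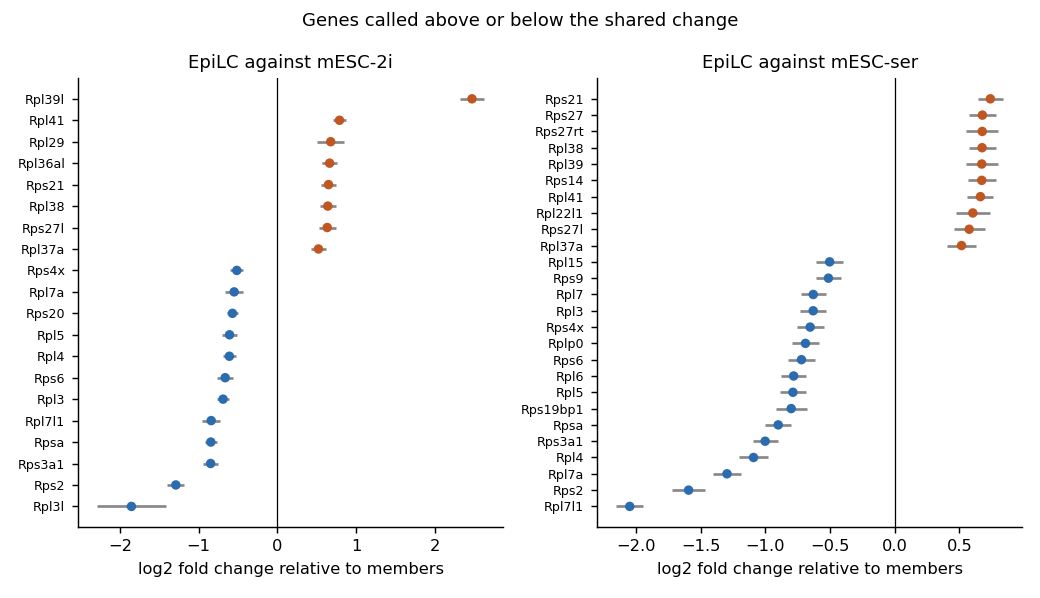
Log2 fold change relative to the family, with its SE, for members called above (orange) or below (blue) the shared change in EpiLC against mESC-2i (left) and against mESC-ser (right). Rpl39l stood at 2.47 on the left, and Rpl7l1 and Rps2 at -2.05 and -1.59 on the right.

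The paralogs did not move as a block. Rpl39l, which can take the place of Rpl39 in the exit tunnel and is known from the testis, differed most between the states. It was at 7.71, 10.9 and 7.08 CPM for mESC-2i, at 22.5, 22.5 and 13.6 for mESC-ser and at 125, 123 and 112 for EpiLC, with no overlap between any pair of groups. The log2 fold change of EpiLC against mESC-2i was 3.803 ± 0.15 (adjusted p = 9.4e-09), the largest of the family, and against mESC-ser it was 2.70 ± 0.15 (adjusted p = 3.3e-11). No window of Rpl39l has a copy elsewhere (gene on chr16:10170226-10174911, plus strand). Per kilobase it stood at 3.81% ± 1.11 of Rpl39 in mESC-2i (SD, n = 3), 20.8% ± 5.02 in mESC-ser and 16.8% ± 1.63 in EpiLC, so its level relative to Rpl39 was higher in both other states than in mESC-2i with no overlap of the libraries.

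Rpl22l1, a paralog of Rpl22 that the Rpl22 protein is known to repress, kept closer to the family. It was at 58.4, 80.4 and 38.2 CPM for mESC-2i, 22.6, 25.001 and 19.02 for mESC-ser and 180, 174 and 133 for EpiLC. The values were -1.43 ± 0.23 for mESC-ser and 1.46 ± 0.23 for EpiLC, each against mESC-2i, and those of Rpl22 were -0.75 ± 0.11 and 1.65 ± 0.11. Both genes thus changed in the same direction in both comparisons.

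Rpl7l1, a nucleolar protein related to Rpl7 and used in ribosome assembly, stood outside the family pattern. It was at 212, 218 and 169 CPM for mESC-2i, 260, 271 and 205 for mESC-ser and 284, 292 and 280 for EpiLC. Rpl7 itself was at 971, 1101 and 782, 649, 645 and 534, and 1932, 1982 and 1784 CPM. Per kilobase Rpl7l1 was at 9.42% ± 0.499 of Rpl7 for mESC-2i, 17.9% ± 0.827 for mESC-ser and 6.71% ± 0.252 for EpiLC. Its main mRNA is 2606 bases long, longer than those of all but 2 members.

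The levels of Rps27l and Rpl36al relative to Rps27 and Rpl36a were lowest in mESC-2i, and the difference in fold change within each pair was not tested. Rps27l, a p53 target in human cells, was at 152, 182 and 109 CPM for mESC-2i, 91.7, 89.0 and 61.2 for mESC-ser and 605, 593 and 528 for EpiLC, with a change of 1.96 against mESC-2i beside 1.58 for Rps27, and of 2.91 against mESC-ser beside 3.02. Per kilobase it stood at 22.6% ± 1.2 of Rps27 for mESC-2i, 31.3% ± 4.85 for mESC-ser and 29.04% ± 0.735 for EpiLC. Rpl36al had a change of 2.00 against mESC-2i beside 1.44 for Rpl36a, and of 2.55 against mESC-ser beside 2.41. Per kilobase it was at 38.8% ± 0.585 of Rpl36a for mESC-2i, 52.3% ± 6.71 for mESC-ser and 57.6% ± 0.518 for EpiLC. For both genes the mESC-2i libraries lay below all others in this ratio, and those of mESC-ser and EpiLC overlapped. Rps27rt, a retrogene of Rps27, kept 22.1% ± 1.34, 20.97% ± 0.824 and 20.9% ± 1.63 of the Rps27 level in mESC-2i, mESC-ser and EpiLC, but 91.1% of its windows are copied, and 98.6% of those of Rps27, so reads of the parent and the retrogene cannot be told apart.

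**Figure D5:**
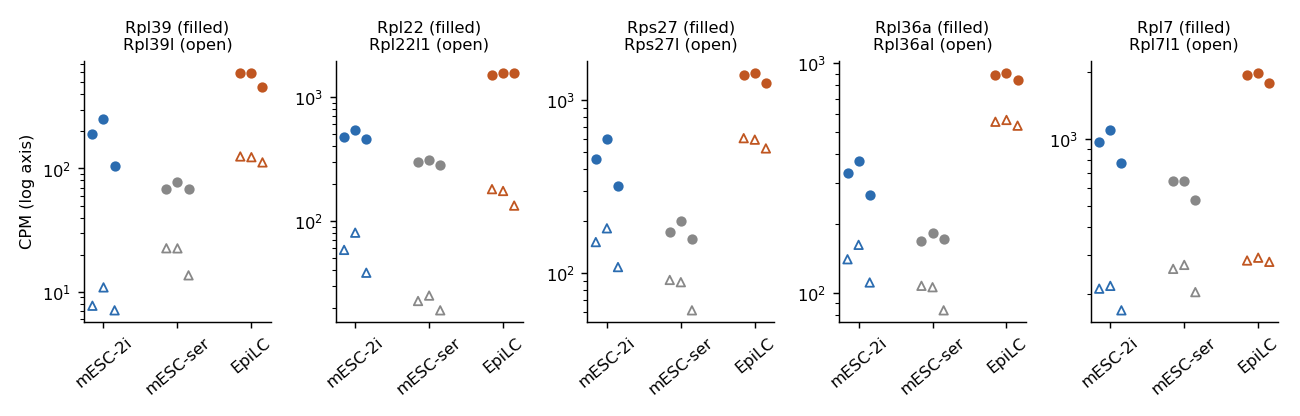
Level (CPM, log axis) of 5 ribosomal protein genes (filled circles) and their paralogs (open triangles) in each library, by state. Rpl39l rose from 7.08 to 10.9 CPM in mESC-2i to between 112 and 125 in EpiLC, while Rpl7l1 stayed between 169 and 292 CPM over all libraries.

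Ribosomal subunits that the name rule misses gave mixed values. Fau, whose product is a ubiquitin-like protein fused to the small-subunit protein Rps30, was at 378 CPM for mESC-2i, 187 for mESC-ser and 1393 for EpiLC on average, with changes of -1.04, 1.88 and 2.97 in the 3 comparisons. Rack1, a scaffold on the small subunit, fell in mESC-ser against mESC-2i (-1.05 ± 0.20, adjusted p = 8.4e-04). It had a value of 0.33 ± 0.18 in EpiLC against mESC-2i (adjusted p = 0.11), and rose in EpiLC against mESC-ser (1.43 ± 0.11, adjusted p = 3.3e-09).

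Other genes of the translation machinery were compared with the same calls and backgrounds. Of 20 other TOP mRNAs, 5 fell and 2 rose in mESC-ser against mESC-2i (median -0.24, and -0.09 with length and GC offsets), so that 25% fell beside 30.3% of all genes. In EpiLC against mESC-2i 11 rose and 5 fell (median 0.59), 55% and 25% beside 32% and 37.8% of all genes. Tpt1 (1.54), Npm1 (1.30), Naca (1.04) and Eef1b2 (0.92) rose in EpiLC, while Eef1a1 (-0.88), Eef2 (-0.64) and Pabpc1 (-1.05) fell there. Of 27 initiation, elongation and termination factors, 12 rose and 1 fell in mESC-ser (median 0.43, and 0.27 with length and GC offsets). These are 44.4% and 3.70%, beside 25.9% and 30.3% of all genes. In EpiLC against mESC-2i 14 rose and 3 fell (median 0.51), 51.9% and 11.1% beside 32% and 37.8% of all genes. Against mESC-ser 9 rose and 9 fell (median -0.11, and 0.42 with the offsets), 33.3% each beside 35.5% and 37.8% of all genes. Eif4g1, the scaffold of the cap-binding complex, was at 581 CPM in mESC-2i and 1408 in mESC-ser (1.25 ± 0.11, adjusted p = 4.8e-06).

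Of 38 ribosome biogenesis genes, 15 rose (39.5%, beside 25.9% of all genes), 23 were not called and 0 fell in mESC-ser against mESC-2i (0 also at an unadjusted p under 0.05, by edgeR and by DESeq2), with a median of 0.44 (0.48 with length and GC offsets), where the ribosomal protein median was -0.91. Among those that rose were Heatr1 and Utp20 of the small-subunit processome (1.74 and 1.73), the RNA helicase Ddx21 (1.49) and Polr1a, the catalytic subunit of RNA polymerase I (1.25). In EpiLC against mESC-2i 24 rose and 1 fell (median 0.65), 63.2% and 2.63% beside 32% and 37.8% of all genes. The rise was largest for the H/ACA proteins Gar1 (2.46) and Nhp2 (2.13), while Dkc1, the enzyme of the same particle, fell by 1.31. In EpiLC against mESC-ser 14 rose and 9 fell, 36.8% and 23.7% beside 35.5% and 37.8% of all genes. The mitochondrial ribosomal proteins, which serve a separate ribosome, had 0 of 76 genes higher in mESC-ser (2 at an unadjusted p under 0.05, by edgeR and by DESeq2). There 12 were lower (median -0.23), 15.8% beside 30.3% of all genes. In EpiLC 69 were higher against mESC-2i (median 1.22), 90.8% beside 32% of all genes. Against mESC-ser 73 were higher (median 1.52), 96.1% beside 35.5% of all genes. The medians of the cytosolic family in these comparisons were -0.91, 1.38 and 2.32.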

How the data were processed

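Poly-A RNA of 9 libraries was sequenced as 50-base single-end reads with an unstranded TruSeq v2 kit. The authors checked reads with FastQC (0.11.0 in the submitters' processing notes), trimmed them with Trim Galore 0.6.6, aligned them to mm10 with HISAT2 2.2.1 and counted them per gene with featureCounts of Subread 2.0.1. The deposited values are raw counts per Ensembl gene. The annotation release, the strand setting and the handling of reads with several alignments are not given in the sources used here. Serum columns were assigned to samples by matching S and L to serum and LIF in the titles.

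Symbols, biotypes and lengths came from GENCODE M21 on GRCm38 (mm10 is this assembly), and 36429 of 38293 rows (95.1%) matched. The main mRNA of a gene was the best ranked protein-coding transcript, the shortest among equals. Pairwise fits, each over the 6 libraries compared, used edgeR 4.0.16 in R 4.3.3 (filterByExpr, TMM, quasi-likelihood test, limma 3.58.1). CPM were scaled by TMM over all 9 libraries. SE were taken from the F statistic. Members were also fitted with libraries scaled by the members alone. The members and lists were chosen with earlier results of these data known, so no p-value is given for the family as a set.

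Named members are a fixed set, the 5 with the largest called rise and fall per comparison, the 3 furthest above and below the shared change (all averaging 100 counts or more in the group with more), and the exceptions to the majority where there were at most 10. Other members called apart from the family, and Rpl8, Rpl35, Rps15a and Rps20, were named after their values were seen. Some genes that met these rules are not reported here, though counts and medians include them.

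On simulated data with 200 changed genes, the fit recovered 98.5%, 97.5% and 100% of them in the order of the comparisons, of 15497, 14864 and 15067 genes. Same-numbered libraries of mESC-ser and mESC-2i correlated at 0.141, 0.195 and 0.359 in their deviations from the group means, each over 0.1. However, mESC-ser 1 correlated at 0.157 with mESC-2i 2, so whether equal numbers are pairs is uncertain. The main fits used no pairs, and replicate number entered as a block only in an alternative fit. The possible pairing comes from the data, as no label explains the numbers. Between replicates, chi-square per degree of freedom was 1.61 to 28.3, so none was counted as a repeat of another. The SD over libraries and the SE of the fits include variation between replicate libraries. No interval from counting error alone is given, and reads carry no molecular identifiers.

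Alternatives were scaling by total counts, upper quartile or RLE, TMM without the members, at least 10 counts in every library, no filter, DESeq2 1.42.0, all 9 libraries in one fit, a replicate block, length and GC offsets (natural splines with 5 degrees of freedom, estimated without the members), other thresholds and leaving out each library. Adding the -ps rows, keeping members with at most 50% copied windows and keeping subunits only were chosen after seeing the data. The histone data of the study were left aside.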

Additional observations from a re-analysis of the deposited data

Results flagged for a closer look

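Rows named as ribosomal protein pseudogenes (226 rows ending in -ps, of which 211 had a count) lie outside the comparisons and held many reads. They took 1.54% ± 0.269 of the counts in mESC-2i (SD, n = 3), 0.772% ± 0.0975 in mESC-ser and 3.00% ± 0.0826 in EpiLC, the same order as the ribosomal protein genes. Per 100 counts of the 84 genes they held 26.4 ± 0.157, 25.3 ± 0.511 and 27.3 ± 0.137. The pseudogene rows of Rpl17 and Rpl30 held 460 and 439 counts per 100 of the gene in mESC-2i. Whether these reads come from the mRNAs or from the pseudogenes was not tested.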

How the results depend on the processing

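In mESC-ser against mESC-2i, 31 members were called lower at a log2 fold change over 1. At that threshold 4935 of 15728 genes were called in either direction, and the share called lower is not given. Among members with at most 50% copied windows, 33 were called lower. Of the 84 members, 45 had over 50% of their windows copied, so here and below such counts cover only the remaining members. Among subunits only, 0 were called higher. The median of the members was -0.62 with length and GC offsets, and 20 members were then called apart from the family (share of all genes not given). In EpiLC against mESC-2i, the median was 1.04 with total counts, 1 member was called lower with length and GC offsets, and 38 were called higher among those with at most 50% copied windows. The distance to other short genes was 1.37 over the whole length range of the members and 0.60 at their level. In EpiLC against mESC-ser, the median was 1.98 with total counts and 1.79 with length and GC offsets. There 37 members were called higher among those with at most 50% copied windows. With the offsets 47 were called apart from the family (share of all genes not given). The distance to short genes was 1.87 with no filter, 2.12 over the whole length range and 1.44 at the level of the members, and Rps2 stood at -0.0012 with length and GC offsets. The share of counts was 6.94%, 3.42% and 13.7% in mESC-2i, mESC-ser and EpiLC of protein-coding nuclear counts, and 4.76%, 2.43% and 9.16% without the 5 members of highest count.

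Leaving out 1 library at a time gave 70 to 78 members lower and 1 higher in mESC-ser against mESC-2i (median -1.04 to -0.79, 5 to 11 apart from the family, distance to short genes -0.74 to -0.57, 8581 to 9391 genes called). It gave 79 to 82 higher and 0 lower in EpiLC against mESC-2i (median 1.24 to 1.55, 20 to 21 apart, distance 0.97 to 1.16, 10608 to 11059 genes) and 82 higher and 0 lower in EpiLC against mESC-ser (median 2.24 to 2.38, 25 to 28 apart, distance 1.64 to 1.75, 11183 to 11446 genes). The shares ranged over 5.33% to 6.38%, 2.93% to 3.24% and 10.8% to 11.1%.

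With replicate number as a block, 75 members were called lower and 1 higher in mESC-ser against mESC-2i, where the numbers may pair the libraries. For named members, 18 of 713 values under the alternatives changed side of the threshold in mESC-ser against mESC-2i, 32 of 713 in EpiLC against mESC-2i and 4 of 697 in EpiLC against mESC-ser, 1 of them with a change of sign. The cause of these changes was not tested. Depth limits Rpl3l, at no more than 20 counts per library, and reads shared with pseudogenes limit the split of counts between members and their copies.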
